A study of Rattus norvegicus with 8 samples.

Results

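Immediate early genes are transcribed within minutes of a growth factor, serum or stress signal, from factors already present in the cell and without new protein synthesis. The 10 genes described here are Fos, Fosb, Jun, Junb and Jund, Egr1, Egr2 and Egr3, and Ier2 and Ier3. They were taken from the table by gene symbol, and each was found once among its 16764 symbols. All 10 also passed the filter on low counts, which kept 12210 genes.

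RNA was sequenced from 3 kinds of male germ cells of Brown Norway rats, with 2 libraries each. Undifferentiated spermatogonia (USg) came from a spermatogonial line kept in SG medium, and their RNA was taken on day 0, ahead of plating on laminin. Differentiating spermatogonia (DSg) were cells of that line extracted on day 7 on laminin, after 120 h in SD medium with all-trans-retinoic acid and neuregulin-1. The titles of both groups carry T120 while the USg descriptions give 0 h in SD medium, so the timing of USg is not settled here. The third group (Spc) held primary testis germ cells enriched for spermatocytes, the cells left unbound after selection on plastic, collagen-I and laminin, kept 2.5 days in medium with 10% fetal bovine serum. Spc therefore differed from the line in stage, source, selection and medium together, and these cannot be told apart, and nor can medium, laminin and time between DSg and USg. The labels speak of replicate cultures of the line and do not say whether the Spc libraries came from separate animals, so p-values measure only the spread between these libraries, which may be technical.

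FOS and JUN proteins pair through leucine zippers to form the transcription factor AP-1. EGR proteins bind GC-rich sites through zinc fingers and are classical outputs of the Ras, MEK and ERK kinase cascade. Serum response factor (SRF) and its ETS-type partners switch on many of these genes at a short A/T-rich element, the CArG box, and CREB does so at the cyclic AMP response element. Their messengers decay fast, so a level in a culture reflects recent signalling as well as cell type.

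The RefSeq promoter table (assembly GRCr8) holds 6 of the 10 genes, Fosb, Junb, Jund, Egr1, Egr2 and Ier2. The bases before the start are given for 3 of the genes that carry these elements. Egr2 and Jund were called higher in Spc than in both groups of the line, and Ier2 was not called in the fit of all 6 libraries. Egr1, which carries CArG boxes too and is not printed, was called higher in Spc than in DSg only. Capitals mark the CArG box in Egr2, the cyclic AMP response element (TGACGTCA) in Jund and Ier2, and the EGR site (GCGNGGGCG, N being any base) in Jund.

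Egr2, chr20:21054442-21054691, minus strand: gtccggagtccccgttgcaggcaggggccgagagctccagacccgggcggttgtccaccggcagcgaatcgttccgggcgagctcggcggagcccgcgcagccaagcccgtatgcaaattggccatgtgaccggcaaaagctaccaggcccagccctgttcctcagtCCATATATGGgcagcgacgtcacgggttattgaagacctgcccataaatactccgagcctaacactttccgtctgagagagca
Jund, chr16:18769772-18770021, minus strand: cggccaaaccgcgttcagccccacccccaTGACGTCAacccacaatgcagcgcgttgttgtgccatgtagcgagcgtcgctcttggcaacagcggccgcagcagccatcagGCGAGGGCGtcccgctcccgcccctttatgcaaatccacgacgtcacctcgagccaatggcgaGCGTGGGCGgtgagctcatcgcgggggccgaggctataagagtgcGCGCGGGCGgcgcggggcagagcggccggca
Ier2, chr19:40399123-40399372, plus strand: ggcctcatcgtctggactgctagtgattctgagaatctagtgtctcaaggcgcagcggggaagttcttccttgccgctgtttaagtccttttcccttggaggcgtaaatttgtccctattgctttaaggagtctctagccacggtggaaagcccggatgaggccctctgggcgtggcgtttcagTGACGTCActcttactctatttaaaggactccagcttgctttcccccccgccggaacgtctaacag

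The CArG box of Egr2 begins 83 bases before the start. Egr1 had 2 CArG boxes in its window, whereas the other 4 genes in the table had 0. Of all 33469 promoter windows of 300 bases (250 before the start and 50 after), searched on both strands, 1.64% held a CArG box, 1.83% TGACGTCA and 4.98% GCGNGGGCG. The 3 EGR sites of Jund were on the gene's own strand. The AP-1 site TGANTCA, in 7.33% of windows, was in none of the 6. The elements do not overlap one another, and a match is a description of the letters only.

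Total counts ran from 2657291 (DSg 1) to 5697165 (USg 2). Reads of ribosomal RNA genes made up 7.81% of the USg 1 library and 12.4% of DSg 1, and at most 0.733% of the other 4. DSg 2 had a count on 96.7% of 1044 olfactory receptor genes, against 23.4% to 64.1% in the other 5 libraries. Levels are CPM, counts scaled to a common library size with TMM factors, shown for every library in the plot of levels, and are not compared between genes because no transcript lengths were used. Germ cell markers (Ddx4, Dazl, Mael, Tex101) had counts in all 6 libraries, and 9 spermatocyte markers summed to 7701 and 8516 CPM in Spc 1 and Spc 2, against 568 to 1282 CPM in the line.

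**Figure D1:**
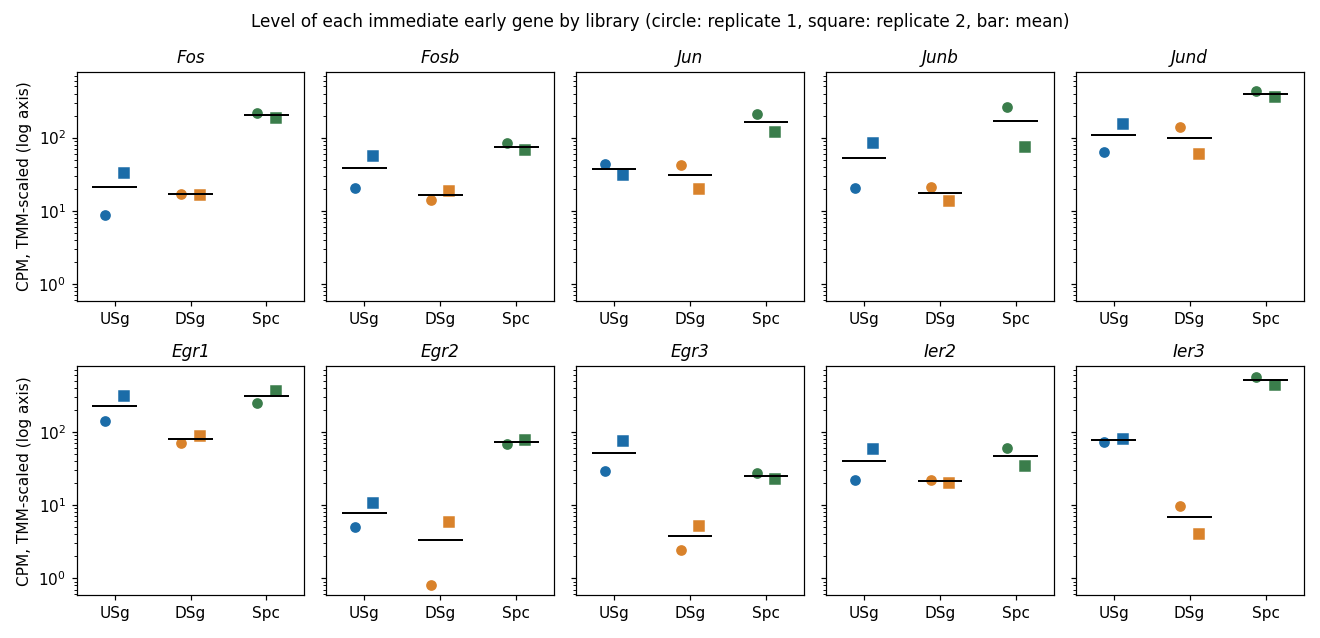
Level of each of the 10 genes (vertical log axis, CPM scaled by TMM factors) in USg, DSg and Spc. Circles are replicate 1, squares replicate 2 and bars the mean of 2 libraries. Both Spc libraries lie above both DSg libraries in all 10 genes, and Egr3 and Ier3 are the genes with DSg far below USg.

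In Spc, 9 of the 10 genes were higher than in DSg and 5 higher than in USg, and 0 were lower in either comparison. Between DSg and USg, Egr3 and Ier3 fell in DSg and 0 rose. Calls are those of edgeR's quasi-likelihood test at a Benjamini-Hochberg adjusted p under 0.05 over all 12210 genes. Among all genes, 14.8% were called higher in Spc than in DSg, 17.9% higher in Spc than in USg and 1.92% lower in DSg than in USg. With DSg 1 or DSg 2 left out, 5 genes were higher in Spc than in DSg and 0 were lower in DSg than in USg, and without USg 1 the latter number was 6. In the same fits 0 of all genes were lower in DSg than in USg without DSg 1 or DSg 2 and 1184 without USg 1, and 1296 and 1189 were higher in Spc than in DSg without DSg 1 and DSg 2. The median log2 fold change of the 10 genes was 2.54 for Spc vs DSg, 1.78 for Spc vs USg and -1.20 for DSg vs USg, against -0.03, -0.04 and 0.01 over all genes. Both Spc libraries were above both DSg libraries in all 10 genes, where 36.6% of all genes were above and 34.6% below without overlap. Against USg, Spc was above without overlap in 6 and below in 1 (Egr3), where 37.1% and 35.3% of all genes were. The comparisons share libraries, so their values stand side by side and do not support one another.

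**Figure D2:**
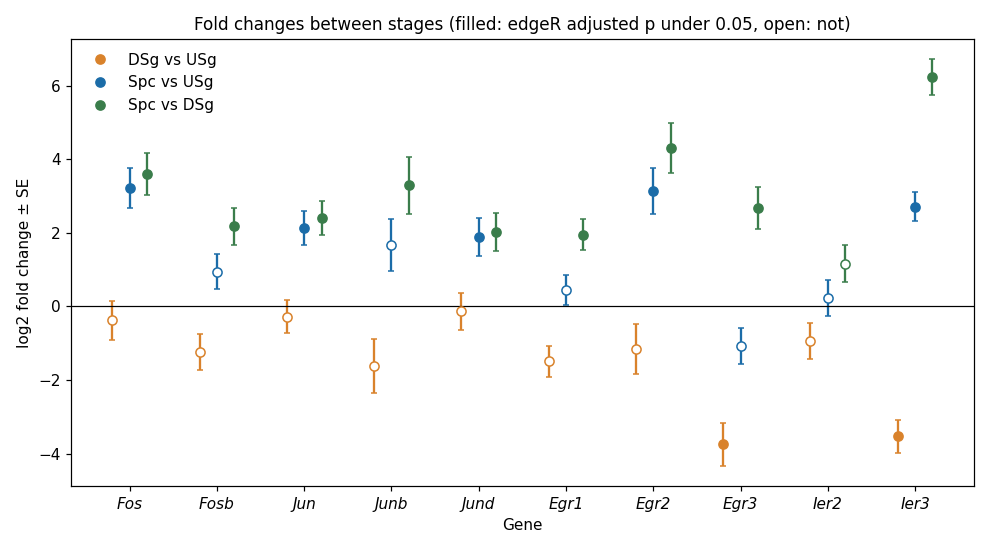
Log2 fold change ± SE (vertical axis) of each of the 10 genes in DSg vs USg (orange), Spc vs USg (blue) and Spc vs DSg (green). Filled points passed an edgeR adjusted p of 0.05 and open points did not: 2, 5 and 9 of the 10 are filled, and Ier3 is filled in all 3 comparisons.

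Fos, the founding member of its family, stood at 8.87 CPM in USg 1 and 33.3 in USg 2, at 17.0 and 16.4 in DSg 1 and DSg 2, and at 219 and 186 in Spc 1 and Spc 2. The DSg libraries lay between the USg libraries, and both Spc libraries were far above all 4 of the line. Fos was 9.33-fold higher in Spc than in USg (log2 fold change 3.22 ± 0.54, SE, edgeR adjusted p = 0.00239) and 12.1-fold higher than in DSg (3.60 ± 0.56, adjusted p = 0.00248). DSg and USg differed by less than their spread (-0.38 ± 0.53, adjusted p = 0.739).

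Fosb, whose product pairs with JUN proteins in the same way, had 20.5 and 56.4 CPM in USg, 14.1 and 18.8 in DSg and 83.4 and 66.6 in Spc. The 3 groups did not overlap, with DSg lowest and Spc highest. It was higher in Spc than in DSg (2.18 ± 0.50, edgeR adjusted p = 0.0131), while Spc vs USg (0.95 ± 0.47, adjusted p = 0.147) and DSg vs USg (-1.23 ± 0.49, adjusted p = 0.222) did not pass. These last values moved with the USg library left out. Spc vs USg was 0.37 without USg 1 and 1.89 without USg 2, and DSg vs USg was -1.91 and -0.37. With no filter and all libraries, DSg vs USg passed (-1.43, edgeR adjusted p = 0.0462). Spc vs DSg missed the threshold without DSg 1 (adjusted p = 0.0777) or DSg 2 (0.0679). The count ratio of Fos to Fosb, which needs no scaling, was 0.434 and 0.590 in USg, 1.20 and 0.871 in DSg and 2.63 and 2.79 in Spc. This ratio was chosen after the values were seen and was not tested.

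Jun, the JUN protein that drives proliferation in many cells, had 44.0 and 31.0 CPM in USg, 42.0 and 19.9 in DSg, and 207 and 121 in Spc. USg and DSg overlapped, and Spc lay above both. Jun was higher in Spc than in USg (2.14 ± 0.45, edgeR adjusted p = 0.00715) and than in DSg (2.42 ± 0.46, adjusted p = 0.00613), and its DSg vs USg value was -0.28 ± 0.45 (adjusted p = 0.774).

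Jund, the family member that many resting cells keep on, showed the same order, with 62.9 and 152 CPM in USg, 137 and 60.0 in DSg and 439.9 and 358 in Spc. Each group of the line held 1 high and 1 low library, and the ranges of USg and DSg overlapped almost entirely. Jund was 3.69-fold higher in Spc than in USg (1.88 ± 0.51, edgeR adjusted p = 0.0202) and 4.05-fold higher than in DSg (2.02 ± 0.51, adjusted p = 0.0199). The first call was lost without USg 1 (1.35, adjusted p = 0.0701) and the second without DSg 2 (1.53, adjusted p = 0.124).

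Junb, which often restrains Jun, was the JUN gene with the widest gap between libraries in USg and in Spc, though not in DSg, at 20.5 and 83.5 CPM in USg, 21.0 and 13.5 in DSg and 261 and 74.0 in Spc. Spc 2 lay below USg 2, so Spc and USg overlapped, whereas both Spc libraries were above both DSg libraries. It was higher in Spc than in DSg (3.29 ± 0.77, edgeR adjusted p = 0.0148), and Spc vs USg (1.67 ± 0.71, adjusted p = 0.0992) and DSg vs USg (-1.62 ± 0.74, adjusted p = 0.277) did not pass. With no filter and all libraries both passed (Spc vs USg 1.64, edgeR adjusted p = 0.00249, and DSg vs USg -1.79, 0.00676). Spc vs USg also passed with DESeq2 (1.69, adjusted p = 0.0228). Spc vs USg was 0.47 without Spc 1, 2.32 without Spc 2, 0.96 without USg 1 and 3.05 without USg 2. DSg vs USg was -2.41 without USg 1 and -0.31 without USg 2. The Spc vs DSg call was lost without DSg 1 (adjusted p = 0.0740) or DSg 2 (0.125).

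Egr1, the most widely used read-out of ERK activity, had 141 and 305 CPM in USg, 70.3 and 88.3 in DSg and 249 and 363 in Spc. DSg was below every other library, and USg and Spc overlapped. Egr1 was 3.85-fold higher in Spc than in DSg (1.95 ± 0.42, edgeR adjusted p = 0.0105) and had 0.45 ± 0.40 for Spc vs USg (adjusted p = 0.412). The first call was lost without DSg 1 (adjusted p = 0.0678) or DSg 2 (0.0588). For DSg vs USg it had -1.49 ± 0.42 with adjusted p = 0.103, which passed as lower in 5 of 17 alternatives, among them DESeq2 (adjusted p = 0.0167), no filter (0.00580) and the fit without USg 1 (-2.08, 0.00565), and over its alternatives ran from 1.11e-05 to 0.315.

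Egr2, known as a factor of Schwann cells and of the hindbrain, was low in the line, with 5.02 and 10.7 CPM in USg and 0.808 and 5.92 in DSg, and stood at 68.0 and 76.4 in Spc. The DSg values rest on 2 and 22 reads. Egr2 was 8.85-fold higher in Spc than in USg (3.15 ± 0.62, edgeR adjusted p = 0.00508) and 19.8-fold higher than in DSg (4.31 ± 0.68, adjusted p = 0.00269), and kept both calls in all 17 alternatives. Its DSg vs USg value was -1.16 ± 0.68 (adjusted p = 0.385), and -3.28 without DSg 2.

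Egr3 had 29.3 and 74.8 CPM in USg against 2.42 and 5.12 in DSg, and 27.0 and 22.9 in Spc, so that Spc lay below USg, unlike in Egr2. The 3 groups did not overlap, with USg highest and DSg lowest. Egr3 was 13.4-fold lower in DSg than in USg (-3.74 ± 0.58, edgeR adjusted p = 0.0191) and 6.36-fold higher in Spc than in DSg (2.67 ± 0.57, adjusted p = 0.0101). For Spc vs USg it was the only one of the 10 with a negative value (-1.07 ± 0.49, adjusted p = 0.121), which passed as lower without USg 1 (-1.63, adjusted p = 0.00603). The DSg vs USg call was lost with limma-voom (adjusted p = 0.0555) and without DSg 1 (0.120) or DSg 2 (0.191), and the Spc vs DSg call without DSg 1 (0.0658).

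Egr2 had 0.171 reads per read of Egr3 in USg 1 and 0.143 in USg 2, 0.333 and 1.16 in DSg, and 2.52 and 3.34 in Spc. The groups did not overlap and were ordered USg, DSg, Spc. The DSg ratios rest on few reads, 2 of Egr2 and 6 of Egr3 in DSg 1 and 22 and 19 in DSg 2, so their place in this order is uncertain. The pair was chosen after the values were seen, and the ratio was not tested.

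Ier3, a growth factor and stress response gene linked to cell survival, had the widest range of the 10. It stood at 73.7 and 80.5 CPM in USg, 9.70 and 4.04 in DSg, and 569.6 and 438 in Spc. The groups did not overlap, and the USg libraries, more than 2-fold apart in 8 of the other genes, were close here. Ier3 was 11.6-fold lower in DSg than in USg (-3.53 ± 0.44, edgeR adjusted p = 0.00906), 6.53-fold higher in Spc than in USg (2.71 ± 0.39, adjusted p = 0.00127) and 75.4-fold higher in Spc than in DSg (6.24 ± 0.48, adjusted p = 2.05e-04). The Spc calls held in all 17 alternatives, and the DSg vs USg call was lost without DSg 1 (adjusted p = 0.0762) or DSg 2 (0.144), fits that leave 1 DSg library.

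Ier2, a nuclear protein gene induced with Fos in many cells, was called in no comparison in the fit of all 6 libraries. It had 22.0 and 57.5 CPM in USg, 22.2 and 19.9 in DSg, and 59.7 and 34.4 in Spc. USg overlapped both other groups, and Spc lay above DSg (1.16 ± 0.50, edgeR adjusted p = 0.116). That value passed with no filter (0.0299), in the fit of the 4 libraries compared (0.0328) and without USg 1 (0.0209), USg 2 (0.0191) or USg 1 and DSg 1 together (0.00148). The count ratio of Ier3 to Ier2 was 3.35 and 1.40 in USg, 0.436 and 0.203 in DSg and 9.54 and 12.7 in Spc, a pair also chosen after the values were seen and not tested.

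In DSg 2, the library with counts across the olfactory receptor genes, those genes had a median of 1.08 CPM and a 90th percentile of 2.42 CPM. Egr2 (5.92 CPM), Egr3 (5.12) and Ier3 (4.04) in DSg 2 were therefore within a few CPM of that level, and its part in the 3 values was not tested. Ier3 was lower in DSg 2 than in DSg 1, whereas Egr2 and Egr3 were higher there.

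The replicates of USg differed in a shared direction. In 8 of the 10 genes USg 2 was more than 2-fold above USg 1, the exceptions being Jun, which was lower, and Ier3. Over all tested genes 16.7% were more than 2-fold higher and 14.1% more than 2-fold lower in USg 2. In DSg 2 genes were more than 2-fold higher and 3 more than 2-fold lower in replicate 2, where 18.5% and 5.59% of all genes were, and in Spc 0 and 1, where 2.65% and 3.02% were. USg 1 had 2687300 counts and USg 2 had 5697165. With the ribosomal RNA genes left out, numbers stayed at 2 lower in DSg vs USg, 5 higher in Spc vs USg and 9 higher in Spc vs DSg. That fit keeps USg 1 and DSg 1, the libraries with the most such reads, so it does not test other differences in them. Without both, DSg vs USg rests on 1 library a group, and was -1.16 for Fos and -1.49 for Jund. With all libraries these values were -0.38 and -0.14. Of the 10, Egr2 alone was less negative without them (-0.99 against -1.16).

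The plot of left-out libraries shows what this spread does to DSg vs USg. All 10 fold changes were negative with all libraries, and 4 genes had groups that did not overlap (Fosb, Egr1, Egr3 and Ier3), where 21.1% of all genes were lower and 21.2% higher without overlap. Without USg 1, 6 of the 10 were called lower, and without USg 2, Egr3 and Ier3 alone. Without USg 2 the values of Fos (0.85) and Jund (0.62) turned positive, as did those of Jun (0.18) and Jund (0.35) without DSg 2. Egr3 ranged from -4.42 to -2.97 and Ier3 from -4.44 to -2.98 over the 6 fits that leave out 1 library.

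**Figure D3:**
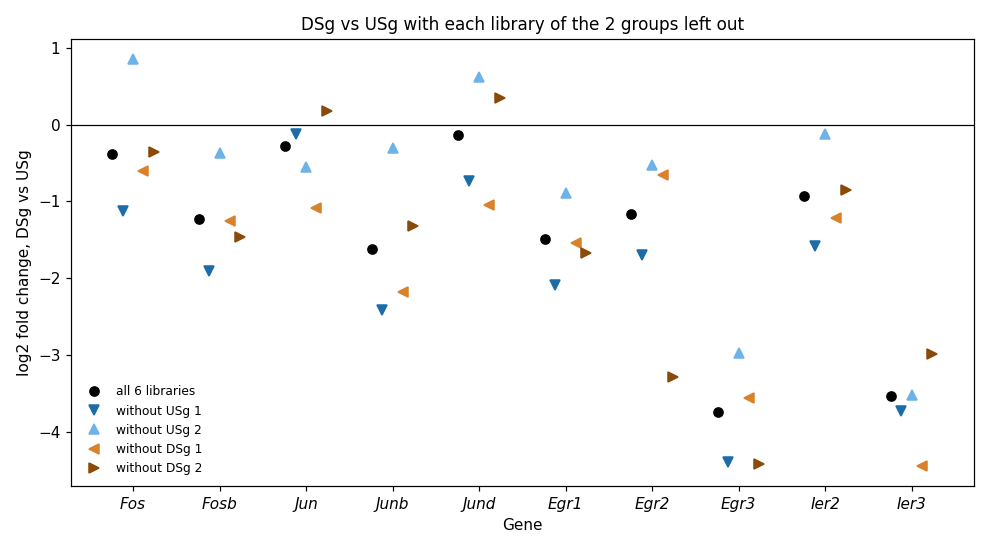
Log2 fold change of DSg vs USg (vertical axis) for each of the 10 genes with all 6 libraries (black circles) and with 1 library of USg (blue triangles) or DSg (brown and orange triangles) left out. Fos and Jund cross 0 without USg 2, whereas the values of Egr3 and Ier3 lie no higher than -2.97 and -2.98 in the fits shown.

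Other immediate early genes were counted from 2 lists of 46 tested genes in all, 18 transcription factor genes and 28 others. In Spc vs DSg 25 were higher and 0 lower, in Spc vs USg 24 higher and 5 lower, and in DSg vs USg 1 higher and 4 lower. The number lower in Spc vs DSg was 2 with no filter, DESeq2 or the fit of the 4 libraries compared. It was 1 with upper quartile or total-count scaling. Without DSg 1 or DSg 2, 0 were called lower in DSg vs USg, and without USg 1 13 were. Their median log2 fold changes were 1.73, 1.42 and -0.38, and the lists were chosen with earlier results of these data known. Over all genes 14.8% were higher and 11.7% lower in Spc vs DSg, 17.9% and 16.6% in Spc vs USg, and 0.565% and 1.92% in DSg vs USg. The nuclear receptor genes Nr4a1, Nr4a2 and Nr4a3, classical early response factors, were among those higher in Spc, Nr4a1 rising from 11.5 ± 2.10 CPM (mean ± SD, n = 2) in USg to 286 ± 60.8 in Spc (4.62 ± 0.37, edgeR adjusted p = 1.35e-04). Nr4a2 had 2.83 ± 0.571 CPM in DSg and 132 ± 0.105 in Spc, and Nr4a3 1.69 ± 0.882 in USg and 61.3 ± 1.69 in Spc. Among the genes that are not transcription factors, Ptgs2, the inducible prostaglandin synthase, stood at 8.98 ± 6.40 CPM in USg, 5.79 ± 4.76 in DSg and 327 ± 3.62 in Spc, and Cyr61, a secreted matrix protein gene, at 6.26 ± 2.06, 8.55 ± 1.24 and 265 ± 27.3. Both were called higher in Spc vs USg (5.26 ± 0.66 and 5.44 ± 0.40) and in Spc vs DSg (5.75 ± 0.68 and 4.94 ± 0.39).

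The relatives of the 10 genes did not all share their order. Egr4, the remaining EGR gene, was lower in Spc (2.00 ± 1.91 CPM) than in USg (71.7 ± 65.9 CPM, -5.13 ± 0.89, edgeR adjusted p = 0.00280), with 25.1 and 118 CPM in USg 1 and USg 2. Egr4 was not called in Spc vs DSg, but passed as lower with no filter (-1.94, edgeR adjusted p = 0.00602) and DESeq2 (-2.13, adjusted p = 0.0246). Its DSg vs USg value was -3.05 ± 0.79 (adjusted p = 0.0854), and passed as lower with no filter (3.12e-07), DESeq2 (0.00104) and without USg 1 (-3.89, 0.00144), Spc 1 (3.17e-05), Spc 2 (9.84e-05) or USg 1 and DSg 1 together (8.76e-07). Fosl1 and Fosl2, the remaining FOS genes, named outside the rule after their values were seen, had 78.0 ± 26.9 and 3.55 ± 2.29 CPM in USg and 87.0 ± 9.68 and 24.5 ± 0.116 in Spc. Fosl2 was higher in Spc than in USg (2.69 ± 0.52, adjusted p = 0.00450), and Fosl1 had 0.15 ± 0.34 (adjusted p = 0.754). In DSg vs USg the genes called lower besides Egr3 and Ier3 included the kinase gene Sgk1 (-4.67 ± 0.36), Phlda1 (-3.40 ± 0.42) and the circadian repressor gene Bhlhe40 (-2.66 ± 0.35), while the matrix protein gene Ctgf was the 1 called higher (3.35 ± 0.48).

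Feedback inhibitors of MAP kinases are induced by the same signals. Of 13 tested, 2 were higher and 7 lower in Spc vs USg, 3 higher and 4 lower in Spc vs DSg, and 0 higher and 3 lower in DSg vs USg. Of all genes, 17.9% and 16.6%, 14.8% and 11.7%, and 0.565% and 1.92% were higher and lower in these comparisons, and a difference between this list and the 10 genes was not tested. The 3 lower in DSg were Dusp4 (-3.54 ± 0.42), Spry4 (-3.12 ± 0.32) and the ERK phosphatase gene Dusp6, which went from 342 ± 29.5 CPM in USg to 42.0 ± 25.1 in DSg (-3.03 ± 0.46, edgeR adjusted p = 0.0178). Dusp6 was also lower in Spc (21.0 ± 5.98 CPM) than in USg (-4.02 ± 0.48, adjusted p = 5.41e-04), as was Spred2 (-3.94 ± 0.35). Dusp1, a phosphatase gene that is itself an immediate early gene, was higher in Spc, going from 16.4 ± 9.02 CPM in USg and 5.72 ± 0.477 in DSg to 185 ± 5.45 in Spc (3.46 ± 0.43 against USg, adjusted p = 6.22e-04).

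The counts for genes upstream of these are given beside the shares of all genes. Of 18 genes of the Ras to ERK cascade, 0 passed in DSg vs USg, 3 were higher and 3 lower in Spc vs USg, and 0 higher and 2 lower in Spc vs DSg. Over all genes 17.9% were higher and 16.6% lower in Spc vs USg, 14.8% and 11.7% in Spc vs DSg, and 0.565% and 1.92% in DSg vs USg. ERK1 (Mapk3) was higher in Spc than in USg (1.57 ± 0.42) and the ERK-activated kinase gene Rps6ka1 lower (-3.77 ± 0.34). Of 6 genes of the JNK cascade, 0, 2 and 1 were lower in DSg vs USg, Spc vs USg and Spc vs DSg and 0 were higher. Of 9 genes of SRF, its partners and CREB factors, 0 were higher and 1 lower in DSg vs USg, 1 and 1 in Spc vs USg, and 2 and 0 in Spc vs DSg. Elk3 was lower in DSg than in USg (-2.25 ± 0.35) and Crem, a CREB family gene with a known role in spermatids, was higher in Spc than in USg (2.08 ± 0.35) and than in DSg (2.30 ± 0.36). The EGR corepressor gene Nab2 was lower in Spc than in USg (-2.46 ± 0.54, edgeR adjusted p = 0.00809), and Nab1 did not pass. Of 9 AP-1 dimer partners outside FOS and JUN, 0 passed in DSg vs USg, and 2 were higher and 2 lower in each comparison with Spc, among the higher the stress kinase target Atf2 (1.21 ± 0.28 against USg).

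Of 15 growth factor receptor genes, 2 were higher and 3 lower in DSg vs USg, 2 and 5 in Spc vs USg and 3 and 8 in Spc vs DSg. The shares of all genes were 0.565% higher and 1.92% lower, 17.9% and 16.6%, and 14.8% and 11.7% in these comparisons. Fgfr3 went from 367 ± 55.5 CPM in USg to 41.1 ± 4.10 in DSg and 8.47 ± 0.282 in Spc, and Gfra1, the GDNF co-receptor, from 186 ± 4.76 to 21.6 ± 6.57 and 4.47 ± 0.754. Both were lower in DSg, as were Egr3, Ier3, Dusp4, Dusp6 and Spry4. Fgfr3 and Gfra1 were lower still in Spc, where Fos, Jun, Jund, Egr2 and Ier3 were at their highest. Kit instead rose from 74.6 ± 16.1 CPM in USg to 579 ± 24.8 in DSg, and stood at 74.3 ± 0.839 in Spc. Pdgfra was higher in Spc (404 ± 15.2 CPM) than in DSg (37.8 ± 13.9). A link between the receptor genes and the immediate early genes was not tested.

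**Figure D4:**
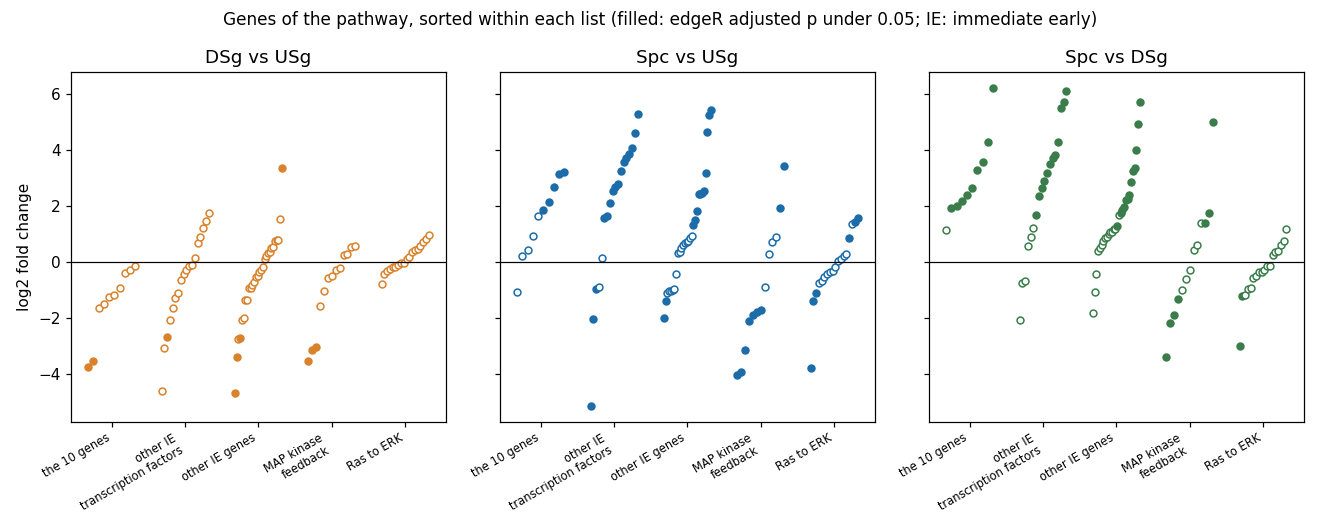
Log2 fold change (vertical axis) of every tested gene in 5 lists (the 10 genes, 18 other immediate early transcription factor genes, 28 other immediate early genes, 13 MAP kinase feedback genes and 18 Ras to ERK genes), sorted within each list, for the 3 comparisons. Filled points passed an edgeR adjusted p of 0.05: in Spc vs DSg all filled points of the first 3 lists lie above 0, whereas the feedback genes lie on both sides.

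Markers of somatic cells of the testis had counts in Spc, the group in which 5 of the genes were higher than in USg and 9 higher than in DSg. Summed levels of 8 peritubular myoid and stromal markers were 2470 and 2362 CPM in Spc 1 and Spc 2 against 197 to 432 in the line, and those of 9 Sertoli cell markers 1322 and 1077 against 208 to 460. Most of the Sertoli sum in Spc was Clu (1011 and 787 CPM). Clu, Wt1, Gata4 and Cldn11 lay above the line, whereas Sox9, Dhh, Amh, Rhox5 and Fshr overlapped it. Col3a1 (1328 and 1142 CPM) and Dcn (538 and 558) led the stromal sum in Spc. Col1a1 alone of the stromal markers overlapped the line, at 142 and 172 CPM against 115 to 312. The 6 Leydig cell markers summed to 179.7 and 182 CPM against 3.47 to 22.9, mostly Star, while Insl3 had 1 and 0 counts in Spc. The 9 macrophage markers summed to 74.5 and 92.1 CPM against 9.29 to 40.7, and 5 endothelial markers to 32.9 and 44.4 against 62.2 to 210.3. All of the markers in the table had a count in Spc 1, and all but Insl3 in Spc 2. All had a count in DSg 2 of the line as well, so a count alone does not set Spc apart. The part of these cells in the levels of the 10 genes was not tested, and in bulk RNA more cells of a type and more RNA per cell cannot be told apart.

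Genes with the pattern most like each of the 10 were found by the distance between log2 CPM values centred over the 6 libraries, among 11820 named genes. Fos was nearest to the cytokine gene Clcf1 (distance 0.65), Prr13 (0.70) and Csrnp1 (0.74), itself an immediate early gene, against a median distance of 4.42. Egr2 was nearest to Prss39 (0.59), Tspo (0.81) and the interferon-induced Isg15 (0.89), with a median of 5.19, and Egr3 to Selm (0.71), Adgrg1 (0.87) and Pqlc1 (1.04), with a median of 4.23. Ier2 was nearest to Mid1ip1 (0.27), to Socs3 (0.30), a feedback inhibitor of cytokine signalling, and to Rbm42 (0.37), with a median of 2.27. Ier3 was nearest to Lgals3bp (1.37), Cited2 (1.50) and Myl9 (1.66), with a median of 6.40. The single nearest gene was Enkd1 for Fosb (0.29), Commd3 for Jun (0.45) and Chchd6 for Junb (1.15). For Jund it was Srsf12 (0.31) and for Egr1 Tmbim6 (0.60). Among the 10 themselves the closest pairs were Fosb with Egr1 (0.88), Fosb with Ier2 (1.22) and Jun with Jund (1.34). The 6 values behind each distance share libraries and depth, and no test was made.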

How the data were processed

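RNA libraries of USg, DSg and Spc (2 each) were analysed, and 2 Foxa2 immunoprecipitation samples were not analysed here. The values deposited by the authors are raw read counts per gene symbol, not normalized: whole numbers whose totals differ between libraries. Per the submitters' processing notes the tools include STAR 2.5.3a and featureCounts, and the builds rn6 and rn5, with no role stated. For these counts the sources used here name no aligner, annotation or strand setting. Of the 10 genes, Fosb alone overlaps another locus in the RefSeq table, one with no gene name.

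Samples were grouped by their descriptions and columns matched by title. Genes were filtered with filterByExpr (minimum count 10, minimum total count 15) and fitted in 1 model of the 6 libraries with edgeR 4.0.16 in R 4.3.3 (TMM factors, quasi-likelihood F-test, two-sided, 3 residual degrees of freedom), and p-values were adjusted over all genes tested. The SE was obtained by dividing the size of the log2 fold change by the root of F. The script was tested on simulated data in which few genes changed, so its shares may differ from those of the real data. It recovered 3.03% to 7.69% of 2-fold, 42.4% to 60.6% of 4-fold and 81% to 90.8% of 8-fold changes over the 3 comparisons. False calls numbered 1 to 7 per comparison. A gene that did not pass may therefore still differ between groups. The members and lists were chosen with earlier results of these data known. Named list genes were, per list and comparison, up to 3 with the largest fold change among those past the threshold with at least 5 CPM in the higher group. For each gene with a group mean of at least 20 CPM, the 3 genes nearest in pattern were sought (log2 CPM, prior count 2). All 3 are given for some genes and only the nearest for the others.

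Alternatives changed the scaling (RLE, upper quartile, total counts), the filter (none, or 5 CPM), the tool (DESeq2 1.42.0, limma-voom with limma 3.58.1) or the libraries (the 4 compared, all but 1, or all but USg 1 and DSg 1). A replicate block and a fit leaving out ribosomal RNA genes were also run.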

Additional observations from a re-analysis of the deposited data

How the results depend on the processing

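Of the 10 genes, 2 were lower in DSg vs USg, and 5 with no filter, 1 with limma-voom, 9 without USg 1 and DSg 1 together and 0 to 6 over the fits that leave out 1 library. In Spc vs USg, 5 were higher and 0 lower, and 6 were higher with no filter or with DESeq2. Both numbers moved over the fits that leave out 1 library, the number higher in both directions. In Spc vs DSg, 9 were higher, and 5 to 10 over those fits, 5 without DSg 1 or DSg 2. The fits without USg 1 and DSg 1 together, or without 1 library, assume that a lone library varies like the other groups. Fold changes of the 10 genes kept their sign under the 3 other scalings. Upper quartile and total-count scaling moved the median of all genes to 0.15 and 0.16 in DSg vs USg and to -0.25 and -0.22 in Spc vs DSg. Signs turned in values that were not called: Fos (0.85 without USg 2), Jun (0.18 without DSg 2) and Jund (0.62 without USg 2, 0.35 without DSg 2) in DSg vs USg. In Spc vs USg they turned for Egr1 (-0.041 without USg 1, -0.030 without USg 1 and DSg 1), Ier2 (-0.33, -0.24 without Spc 1, -0.31) and Fosl1 (-0.20, -0.19). Over the fits that leave out 1 library, DSg vs USg ran from -1.13 to 0.85 for Fos, -1.09 to 0.18 for Jun and -1.05 to 0.62 for Jund. Spc vs USg ran from -0.041 to 1.13 for Egr1, -0.33 to 1.11 for Ier2 and -0.20 to 0.57 for Fosl1.

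Over all genes, DSg vs USg had 69 higher and 234 lower, and 189 and 855 with no filter, 239 and 542 with DESeq2, 10 and 80 in the fit of 4 libraries, 2992 and 3335 without USg 1 and DSg 1, 141 lower with total-count scaling, and 0 to 317 higher and 0 to 1184 lower with 1 library left out. Spc vs USg had 2185 and 2029, 4081 and 4165 without USg 1 and DSg 1, and 1306 to 2288 and 922 to 2274 with 1 library left out. Spc vs DSg had 1806 and 1433, 4115 and 4177 without USg 1 and DSg 1, 2152 lower in the fit of 4 libraries, and 1168 to 2547 and 466 to 1742 with 1 library left out. The cause of these shifts was not tested. With the replicate block, 168 genes were higher and 436 lower in DSg vs USg, 3 of the 10 were lower there, Egr1 (-1.41, edgeR adjusted p = 0.0318) besides Egr3 and Ier3, and 5 and 9 were higher in Spc vs USg and Spc vs DSg. Egr4 was also called lower in DSg vs USg with the block (adjusted p = 0.0284). The numbers share no stated culture, and deviations of same-numbered libraries correlated at 0.25 (USg and DSg), -0.27 (USg and Spc) and 0.01 (DSg and Spc). Of named list genes past the threshold, 0 of 11 in DSg vs USg, 17 of 24 in Spc vs USg and 12 of 20 in Spc vs DSg kept their call in all 17 alternatives. Depth limits Egr2, Egr3 and Ier3 in DSg, at 2 and 22, 6 and 19, and 24 and 15 reads in DSg 1 and DSg 2.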
